A study of Mus musculus with 10 samples.

Results

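The 10 genes described here serve the presentation of peptides on MHC class I molecules: *H2-K1*, *H2-D1*, *H2-T23*, *B2m*, *Tap1*, *Tap2*, *Tapbp*, *Psmb8*, *Psmb9* and *Nlrc5*. They were chosen by their symbols as a pathway, without a threshold on any measured value but with earlier results of these data known. They are 10 of the 55453 genes in the count table. All 10 were counted often enough to enter the comparison of 14481 genes. RNA was sequenced from hippocampal microglia, the resident macrophages of the brain, sorted from aged female 3xTg AD mice. Both groups carry the same mutant forms of human APP and MAPT driven in neurons by the Thy1.2 promoter. The mice were retired breeders, treated from about 15 months of age for about 8 weeks. The 5 libraries of the GA group came from mice given weekly subcutaneous glatiramer acetate (GA), a mixture of synthetic polypeptides used as a drug in multiple sclerosis, at 0.1 mg per injection. The 5 libraries of the PBS group came from mice of the same genotype given the vehicle, so that no group without transgenes enters any comparison here. The comparison asks whether GA altered the expression of these genes in microglia.

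Live cells with intermediate CD45 and with CD11b were sorted, which selects microglia but does not exclude every other myeloid cell. Total counts per library ranged from 32332185 to 38764643. The labels do not say that each library came from a different mouse, so p-values measure the spread between libraries, which may be partly technical. Each library title begins with a number whose meaning is not given: 388 for all PBS libraries, 394 for GA 1 and GA 2, and 400 for GA 3, GA 4 and GA 5. Treatment and this number cannot be told apart, because none of these numbers holds both treatments. The levels of 10 microglial marker genes summed to 51022 to 58325 CPM (counts scaled to a common library size) in PBS libraries and to 52595 to 56255 CPM in GA libraries. In bulk RNA, fewer cells of a type and less RNA per cell cannot be told apart.

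Nucleated cells use MHC class I to show T cells a sample of the peptides made inside them. Proteasomes cut proteins into peptides, the transporter TAP carries the peptides into the endoplasmic reticulum, and a loading complex places them on a heavy chain paired with β2-microglobulin. Interferons raise the expression of the whole route. They act through factors that bind the interferon-stimulated response element (ISRE) and through NLRC5, a transactivator that works at the X and Y boxes of class I promoters. Microglia at rest are known for low surface MHC class I and for increasing it in response to interferon and in disease models.

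The promoters of the heavy chain genes, of *B2m* and of the gene pair *Tap1* and *Psmb9* are shown because they carry the elements through which these genes are known to be regulated together. The sequences are from RefSeq on GRCm38.p6, and a promoter is taken as 250 bases before to 50 bases after the annotated start. Of the 10 genes, 8 were matched to the promoter table, all but *Tap2* and *Nlrc5*. Each sequence is written 5′ to 3′ on the strand of its gene. Capitals mark matches on either strand to GAAANNGAAA (the ISRE), to CCAAT (the Y box, which reads ATTGG on the other strand) and to TGACG (the core of the X2 box, CGTCA on the other strand). In *H2-K1* and *H2-D1* capitals also mark GGGATTCC (a word of the κB kind) and a shorter ISRE, GAANNGAAA, both added after these sequences had been seen.
H2-K1 (chr17:34000349-34000467, minus strand): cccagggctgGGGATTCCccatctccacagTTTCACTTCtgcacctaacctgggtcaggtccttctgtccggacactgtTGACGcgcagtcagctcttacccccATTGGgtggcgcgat
H2-D1 (chr17:35262914-35263055, plus strand): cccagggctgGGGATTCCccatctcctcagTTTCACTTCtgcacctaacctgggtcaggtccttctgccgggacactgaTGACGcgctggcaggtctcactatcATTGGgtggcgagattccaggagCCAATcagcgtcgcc
H2-T23 (chr17:36032739-36032835, minus strand): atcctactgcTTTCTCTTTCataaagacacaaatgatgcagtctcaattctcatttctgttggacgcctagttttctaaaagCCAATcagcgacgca
B2m (chr2:122147538-122147648, plus strand): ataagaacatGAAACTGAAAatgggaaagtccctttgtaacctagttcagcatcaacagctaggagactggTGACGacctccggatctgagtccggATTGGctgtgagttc
Tap1 (chr17:34187324-34187484, plus strand): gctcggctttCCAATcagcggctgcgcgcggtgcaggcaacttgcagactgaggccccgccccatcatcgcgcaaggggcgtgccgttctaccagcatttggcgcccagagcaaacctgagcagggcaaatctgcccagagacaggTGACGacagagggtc

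The ISRE was found in the promoters of *H2-T23* and *B2m* and in 3.44% of the 32851 promoters of the table. The Y box was found in 7 of the 8 matched promoters, in *Psmb8* alone without a match, and in 37.4% of all promoters. The X2 core was found in *H2-K1*, *H2-D1*, *B2m*, *Tap1* and *Psmb9*, and in 20.8% of all promoters. The κB word fixed at the outset, GGGANTTCC, was found in none of the 8 and in 1.68% of all promoters. GGGATTCC occurred in *H2-K1* and *H2-D1* and in 1.06% of all promoters, and the shorter ISRE in the same pair of genes and in 7.52% of all promoters. No allowance was made for the overlap of the shorter ISRE with the full one, and none of these matches shows that a factor was bound in these cells.

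The promoters of *H2-K1* and *H2-D1* aligned over 177 bases with 161 identical, 91% of them, so that the κB word, the shorter ISRE and the X2 core lie in the same order and spacing in both. *Tap1* and *Psmb9* start 226 bases apart on opposite strands by RefSeq, so that most of the sequence printed for *Tap1* also lies before that start of *Psmb9*. The GENCODE model of *Psmb9* reaches further and covers this stretch. The Y box of that region lies at -222 to -218 from the start of *Tap1* and at -8 to -4 from that of *Psmb9*.

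Of the 10 genes, 8 lie on chromosome 17 in the mouse MHC and its flank, on GRCm38. *H2-K1* (ENSMUSG00000061232.16) spans chr17:33996017-34000347, *Tapbp* (ENSMUSG00000024308.15) chr17:33915899-33929292, *Psmb9* (ENSMUSG00000096727.3) chr17:34181987-34187764, *Tap1* (ENSMUSG00000037321.17) chr17:34187553-34197225, *Psmb8* (ENSMUSG00000024338.15) chr17:34197721-34201454 and *Tap2* (ENSMUSG00000024339.12) chr17:34203527-34216321. *H2-D1* (ENSMUSG00000073411.11) spans chr17:35262730-35267499 and *H2-T23* (ENSMUSG00000067212.8) chr17:36029773-36032855. Away from the MHC, *B2m* (ENSMUSG00000060802.8) spans chr2:122147686-122153083 and *Nlrc5* (ENSMUSG00000074151.13) chr8:94434356-94527272.

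Levels of different genes were compared per kilobase of exon, scaled to the same total in each library over all genes with a known length (TPM). By this measure *B2m*, the light chain shared by all classical class I molecules, had 6836 ± 904 TPM (SD, n = 5) in PBS libraries and 7064 ± 1428 TPM (SD, n = 5) in GA libraries, and was the 14th most abundant of 14353 genes by its mean. *H2-D1* had 1700 ± 313 TPM with PBS and 2163 ± 683 TPM with GA (SD, n = 5 each). *H2-K1* had 582 ± 106 TPM with PBS and 679 ± 215 TPM with GA (SD, n = 5 each). Over all libraries the level of *B2m* was 3.6-fold that of *H2-D1*, and the level of *H2-D1* was 3.06-fold that of *H2-K1*, both in the same order in 10 of 10 libraries.

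*Tapbp*, which encodes tapasin, the bridge between TAP and the heavy chain, had 625 ± 28.6 TPM with PBS and 628 ± 27 TPM with GA (SD, n = 5 each). *H2-K1* and *Tapbp* could not be ordered, since *H2-K1* was the higher in 4 of 10 libraries. *H2-T23*, the heavy chain of the nonclassical molecule Qa-1, followed with 187 ± 17.6 TPM with PBS and 204 ± 39.1 TPM with GA (SD, n = 5 each). *Tap2* (122 ± 7.51 TPM with PBS) exceeded *Psmb8* (111 ± 8.89 TPM with PBS) in 10 of 10 libraries, although their ranges over libraries overlapped. *Psmb9* (64.1 ± 9.6 TPM with PBS) and *Tap1* (66.9 ± 6.41 TPM with PBS) were in 1 order in 5 libraries and in the other order in 5.

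*Nlrc5* stood far below the rest, with 4.36 ± 2.41 TPM in PBS libraries and 6.11 ± 4.1 TPM in GA libraries (SD, n = 5 each). The mean level of *Tap1*, the next in the order, was 13-fold higher, and *Nlrc5* ranked 9808th of 14353. The transactivator was thus the scarcest of the 10 transcripts.

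No difference between GA and PBS in the 10 genes was larger than the spread between libraries. In edgeR's quasi-likelihood test with Benjamini-Hochberg adjustment over 14481 genes, 0 of the 10 had an adjusted p under 0.05, and 0% of all genes did. DESeq2 called 2 genes of the whole table and 0 of the 10. At an unadjusted p under 0.05 the edgeR test gave 0 of the 10 and 833 of all genes, 5.75% of them. The fold change was above 1 in 7 of the 10 and in 50.1% of all genes. The median log2 fold change of the 10 was 0.09, and that of all genes 0.000199. Libraries of the groups overlapped for all 10, where 0.891% of all genes had groups without overlap.

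**Figure D1:**
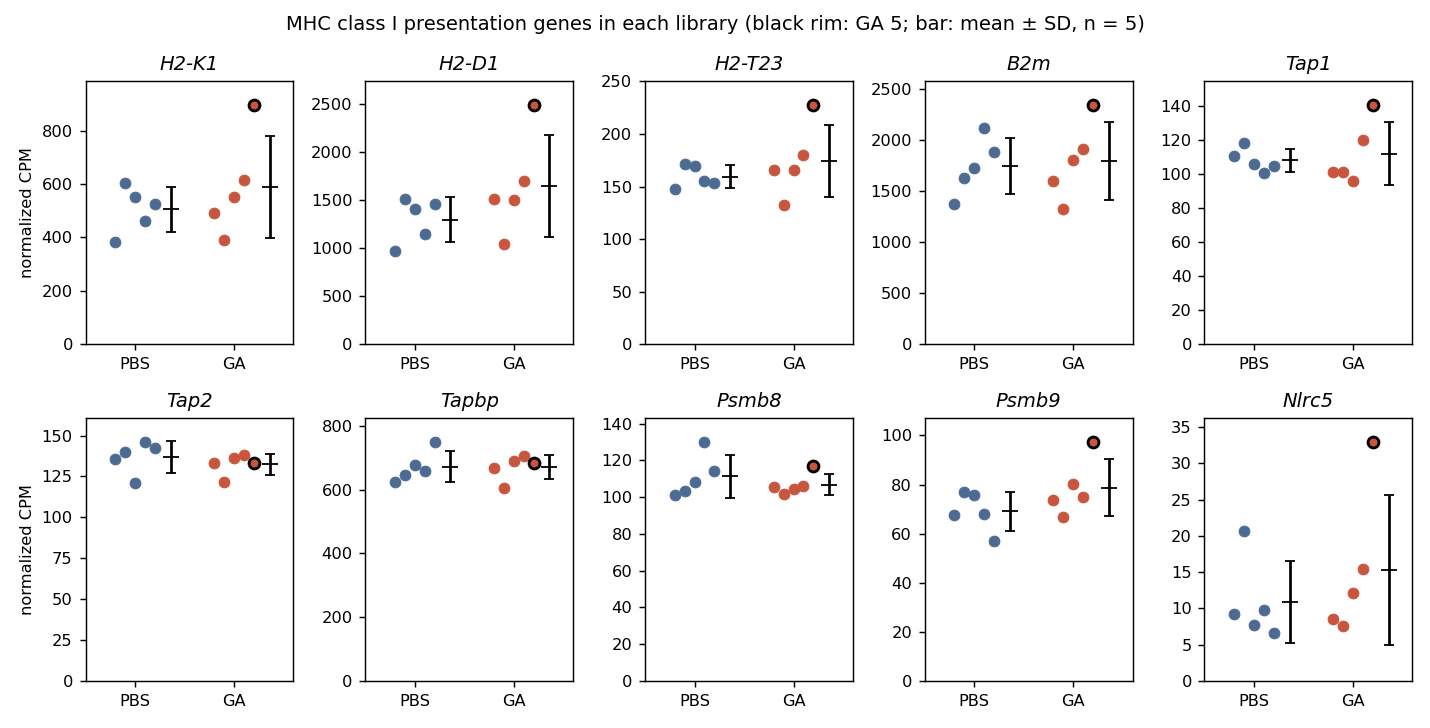
Normalized CPM (y axis, linear, from 0) of each of the 10 genes in the 5 PBS and 5 GA libraries (x axis); points are libraries in the order 1 to 5 from left to right, bars are the mean ± SD (n = 5), and the black rim marks library GA 5. GA 5 is the highest of 10 libraries for 7 genes, among them *H2-K1* at 896 CPM and *Nlrc5* at 33 CPM, while *Tap2*, *Tapbp* and *Psmb8* are highest in a PBS library.

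Among the heavy chains, *H2-K1*, a classical class I molecule expressed on most cells, had 384, 604, 552, 462 and 526 CPM in PBS libraries 1 to 5. It had 491, 391, 553, 613 and 896 CPM in GA libraries 1 to 5. GA 5 stood highest, at 1.66 times the median of the 10 libraries, while GA 2 lay next to PBS 1, the lowest. GA over PBS gave a log2 fold change of 0.22 (standard error 0.18, 95% interval -0.16 to 0.60, edgeR adjusted *P* = 0.920), and a two-sided exact permutation test gave *P* = 0.468.

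*H2-D1*, the other classical heavy chain, had 965, 1514, 1404, 1147 and 1454 CPM in PBS libraries 1 to 5. It had 1510, 1039, 1503, 1693 and 2489 CPM in GA libraries 1 to 5. The GA group held both the highest value and the second lowest, and 2 GA libraries lay above every PBS library. The log2 fold change of 0.34 (standard error 0.18, 95% interval -0.05 to 0.74) had the smallest unadjusted p of the 10 genes, 0.0809, with an edgeR adjusted *P* of 0.895. A two-sided exact permutation test gave *P* = 0.214.

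*H2-T23*, whose product Qa-1 engages NKG2A receptors on NK and T cells, had 147, 172, 169, 155 and 154 CPM in PBS libraries 1 to 5. It had 166, 132, 165, 180 and 228 CPM in GA libraries 1 to 5. GA 5 was again the highest and GA 2 the lowest of all 10 libraries. Its log2 fold change was 0.13 (standard error 0.11, 95% interval -0.11 to 0.37, edgeR adjusted *P* = 0.929).

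*B2m* had 1375, 1625, 1729, 2118 and 1879 CPM in PBS libraries 1 to 5. It had 1596, 1323, 1800, 1906 and 2342 CPM in GA libraries 1 to 5. The groups overlapped nearly throughout, with PBS 4 second only to GA 5. For *B2m* the log2 fold change was 0.04 (standard error 0.14, 95% interval -0.25 to 0.33, edgeR adjusted *P* = 0.978).

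*Tap1* and *Tap2* encode the subunits of the peptide transporter. *Tap1* had 111, 118, 106, 101 and 105 CPM in PBS libraries 1 to 5. It had 102, 101, 96.1, 120 and 141 CPM in GA libraries 1 to 5. GA 4 and GA 5 were the highest libraries and GA 3 the lowest, and the log2 fold change was 0.05 (standard error 0.10, edgeR adjusted *P* = 0.971).

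*Tap2* had 136, 140, 121, 146 and 142 CPM in PBS libraries 1 to 5. It had 133, 122, 136, 138 and 133 CPM in GA libraries 1 to 5. All GA libraries lay inside the PBS range, GA 5 included. The log2 fold change was -0.05 (standard error 0.07, 95% interval -0.19 to 0.09, edgeR adjusted *P* = 0.951).

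*Tapbp* had 625, 648, 679, 658 and 751 CPM in PBS libraries 1 to 5. It had 669, 607, 692, 707 and 683 CPM in GA libraries 1 to 5. The group means were 672 ± 48.2 and 672 ± 38.7 CPM (SD, n = 5 each), and the 95% interval of the log2 fold change ran from -0.14 to 0.14. Of the exon bases of *Tapbp*, 24.9% are shared with *Gm19412* on the opposite strand, and whether the counting used the strand is not given in the sources used here.

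*Psmb8* and *Psmb9* encode catalytic subunits that interferon induces and that replace constitutive ones in the immunoproteasome. *Psmb8* had 101, 103, 108, 130 and 114 CPM in PBS libraries 1 to 5. It had 105, 102, 105, 106 and 117 CPM in GA libraries 1 to 5. PBS 4 was the highest library, and the log2 fold change was -0.06 (standard error 0.08, 95% interval -0.22 to 0.11, edgeR adjusted *P* = 0.951).

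*Psmb9* had 67.5, 77.1, 75.9, 68 and 57.2 CPM in PBS libraries 1 to 5. It had 73.8, 66.9, 80.3, 75.1 and 97.5 CPM in GA libraries 1 to 5. GA 5 and GA 3 lay above every PBS library and PBS 5 lay lowest. The log2 fold change was 0.19 (standard error 0.11, 95% interval -0.04 to 0.41, edgeR adjusted *P* = 0.895), with *P* = 0.190 in the two-sided exact permutation test.

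*Nlrc5* had 9.24, 20.7, 7.76, 9.82 and 6.66 CPM in PBS libraries 1 to 5. It had 8.54, 7.58, 12.1, 15.4 and 33 CPM in GA libraries 1 to 5. These rest on 235 to 1283 reads per library, so that counting error was small beside the differences between libraries. PBS 2 and GA 5 stood highest in their groups. The log2 fold change of 0.50 was the largest of the 10 and also the least precise (standard error 0.39, 95% interval -0.33 to 1.33, edgeR adjusted *P* = 0.910).

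The coefficient of variation between libraries was 52.3% with PBS and 67.5% with GA for *Nlrc5*, the most variable gene. It was 16.8% and 32.3% for *H2-K1*, 17.9% and 32.1% for *H2-D1*, 6.64% and 19.8% for *H2-T23*, and 6.1% and 16.6% for *Tap1*. For *B2m* it was 15.9% and 21.1%, and for *Psmb9* 11.6% and 14.7%. In the other 3 genes it was lower with GA, at 7.07% and 4.81% for *Tap2*, 7.17% and 5.76% for *Tapbp*, and 10.5% and 5.52% for *Psmb8*. The difference in spread between the groups was not tested.

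GA 5 was the highest of the 10 libraries for 7 of the 10 genes: the 3 heavy chains, *B2m*, *Tap1*, *Psmb9* and *Nlrc5*. It was the highest for 7.06% of all genes tested. This count was made after the values had been seen. GA 5 stood at 3.46 times the median library for *Nlrc5*, 1.68 times for *H2-D1*, 1.37 times for *H2-T23* and 1.31 times for *Psmb9*, but at 1.01 times for *Tapbp* and 0.978 times for *Tap2*. Only for *Psmb8* did it lie further above the other GA libraries than a Dixon test allows at 95%, as for 0.573% of all genes. The lowest library of the heavy chain *H2-T23*, of *B2m* and of *Tapbp* was GA 2.

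Without GA 5 the log2 fold change of *Nlrc5* was 0.01, that of *H2-K1* 0.02, that of *H2-T23* 0.01 and that of *H2-D1* 0.15. Those of *B2m* and *Tap1* changed sign, to -0.08 and -0.04. The count of genes with a fold change above 1 went from 7 to 5, and the median log2 fold change of the 10 from 0.09 to 0.0025. The log2 fold change of *Psmb9* went from 0.19 to 0.10 (standard error 0.10). Leaving out GA 2, the lowest GA library for most of these genes, moved them the other way. The log2 fold change of *H2-K1* was then 0.34 (unadjusted p 0.0587), that of *H2-D1* 0.47 (0.0107), that of *H2-T23* 0.21 (0.0466) and that of *Psmb9* 0.24 (0.0407). In that fit 3 of the 10 genes and 6.77% of all genes had an unadjusted p under 0.05, and the smallest edgeR adjusted *P* of the 10 was 0.554.

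**Figure D2:**
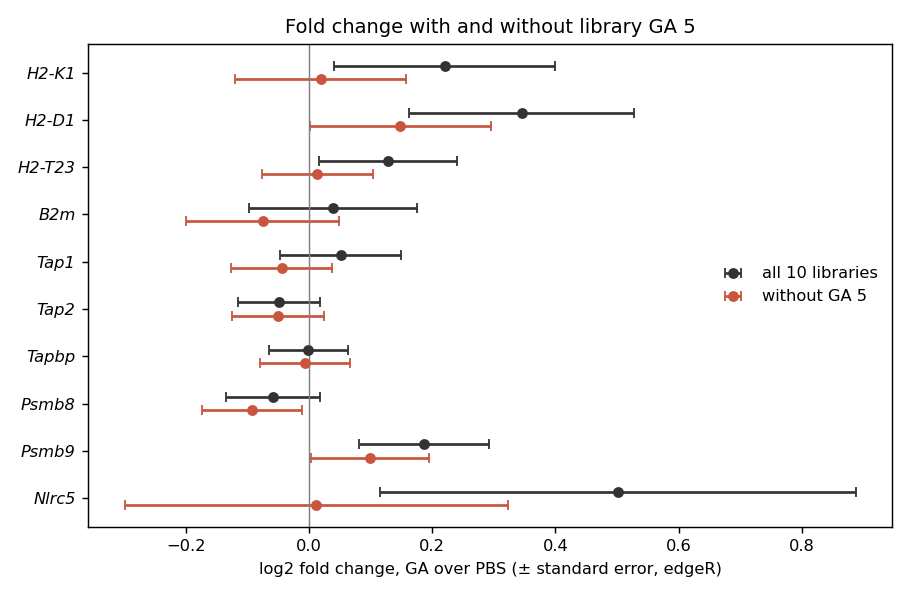
Log2 fold change of GA over PBS (x axis) for each of the 10 genes (y axis) with its standard error from edgeR; black points use all 10 libraries and red points leave out GA 5. The points of *H2-K1*, *H2-T23* and *Nlrc5* move to near 0 without this library, those of *B2m* and *Tap1* cross 0, and those of *Tap2* and *Tapbp* stay in place.

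The GA libraries were also compared by the number that opens their title, with 3 libraries of 400 against 2 of 394. All 10 genes were higher in the libraries of 400, as were 51.4% of all genes. At an unadjusted p under 0.05 edgeR gave 5 of the 10 and 5.48% of all genes, and after adjustment 0 of the 10 and 0.0138% of all genes. The log2 difference was 1.32 for *Nlrc5* (unadjusted p 0.0157, adjusted *P* = 0.701), 0.64 for *H2-K1* (0.00862, adjusted *P* = 0.589), 0.57 for *H2-D1* (0.0262, adjusted *P* = 0.791), 0.47 for *B2m* (0.0124, adjusted *P* = 0.659) and 0.36 for *H2-T23* (0.0230, adjusted *P* = 0.789). Every library of 400 lay above both of 394 for 6 of the 10 genes and for 14.2% of all genes.

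Without GA 5, *H2-K1* alone, 1 gene of the 10, had an unadjusted p under 0.05 in this contrast, and 4.54% of all genes did (log2 difference 0.40, p 0.0462, edgeR adjusted *P* = 1). All 10 genes were higher in the libraries of 400 in this fit too (51.3% of all genes), with log2 differences of 0.77 for *Nlrc5* (p 0.0975), 0.345 for *B2m* (p 0.0574), 0.33 for *H2-D1* (p 0.142) and 0.21 for *H2-T23* (p 0.125), unadjusted p from edgeR. The mean level of *H2-K1* was 441 CPM in the libraries of 394, 506 CPM in those of 388 and 687 CPM in those of 400. That of *Nlrc5* was 8.06, 10.8 and 20.2 CPM in the same order. The mean of the PBS libraries lay between those of the GA libraries of either number for 7 of the 10 genes, all but *Tap2*, *Psmb8* and *Psmb9*, while single libraries overlapped: PBS 1 lay below both libraries of 394 for *H2-K1*, PBS 5 did so for *Nlrc5*, and PBS 2 lay above GA 3 for both genes. Against PBS the fold change was above 1 for 1 of the 10 with 394 alone (49.9% of all genes) and for 8 of the 10 with 400 alone (51% of all genes).

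The 10 genes varied together across libraries to unequal degrees. Of the 45 pairs, 43 had a positive Pearson r of log2 CPM, with a median of 0.52 and a range from -0.19 to 0.97 over 10 libraries. After Benjamini-Hochberg adjustment over the 45 pairs, 10 pairs passed 0.05 by r and 4 by Spearman's rho (permutation tests). The pairs share genes and libraries and are not independent of one another.

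The closest pairs were the heavy chains. *H2-K1* and *H2-D1* had r = 0.97 (permutation *P* = 3e-05, adjusted 0.00135) and rho = 0.92 (permutation *P* = 0.00052, adjusted 0.0163), and r = 0.90 without the 2 libraries farthest from the median of *H2-K1*. *H2-K1* and *H2-T23* had r = 0.95 (permutation *P* = 7e-05, adjusted 0.00157) and rho = 0.90 (permutation *P* = 8e-04, adjusted 0.0163), with r = 0.92 without the 2 farthest. Of all 100-base stretches of the transcripts of *H2-K1*, 0.957% occurred in another gene, and *H2-D1* was not among these genes.

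*Nlrc5* had r = 0.83 with *H2-T23* (permutation *P* = 0.0032, adjusted 0.0288; rho = 0.73, permutation *P* = 0.0215, adjusted 0.121), 0.83 with *Psmb9* (permutation *P* = 0.00244, adjusted 0.0274; rho = 0.79, permutation *P* = 0.00864, adjusted 0.0648) and 0.83 with *Tap1* (permutation *P* = 0.00538, adjusted 0.0303; rho = 0.49, permutation *P* = 0.156, adjusted 0.305). Without the 2 libraries farthest from the median of *H2-T23*, *Psmb9* or *Tap1* these values of r were 0.60, 0.53 and 0.49. With *H2-K1*, *Nlrc5* had r = 0.81 (permutation *P* = 0.0049, adjusted 0.0303) and rho = 0.69 (permutation *P* = 0.0365, adjusted 0.149). Without the 2 libraries farthest from the median of *H2-K1* this r was 0.64. None of the pairs with *Nlrc5* passed by rho. With *Tapbp* its r was 0.04, with *Psmb8* 0.10 and with *Tap2* 0.21.

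*H2-T23* and *Psmb9* had r = 0.83 (permutation *P* = 0.00844, adjusted 0.0422; rho = 0.81, permutation *P* = 0.00724, adjusted 0.0648), and *H2-K1* and *B2m* had r = 0.77 (permutation *P* = 0.00966, adjusted 0.0435; rho = 0.62, permutation *P* = 0.0604, adjusted 0.194), with r of 0.70 and 0.46 without the 2 farthest libraries. *B2m* and *Psmb8* had r = 0.79 (permutation *P* = 0.00446, adjusted 0.0303) and rho = 0.87 (permutation *P* = 0.00236, adjusted 0.0265), and r = 0.79 without the 2 farthest libraries. PBS 4 and GA 5 were the highest libraries of both genes. Among the 7 genes that were highest in GA 5 the 21 values of r had a median of 0.75, and 0.54 without GA 5, while the 21 between these 7 and the other 3 genes had a median of 0.12. This grouping was made after the values had been seen and was not tested. Over all pairs the median r without GA 5 was 0.39, and 3 pairs then passed. With each gene centred on its treatment group the median was 0.53 and 15 pairs passed, and 11 passed with CPM scaled by library size alone.

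**Figure D3:**
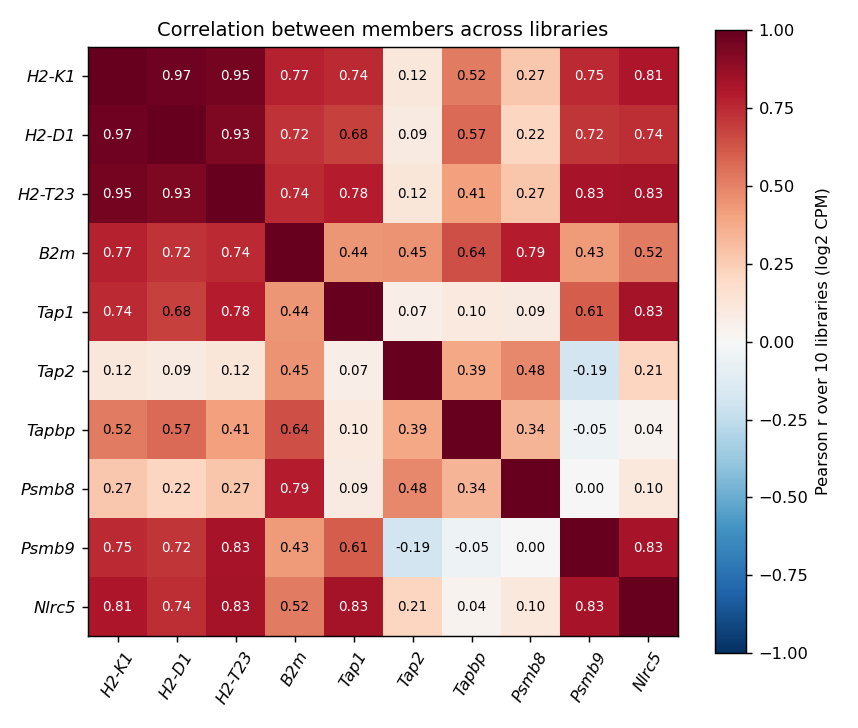
Pearson r of log2 CPM over the 10 libraries for each pair of the 10 genes (rows and columns), with the value written in each cell and the color scale from -1 to 1. The block of *H2-K1*, *H2-D1* and *H2-T23* lies at 0.93 to 0.97, *Nlrc5* lies at 0.74 to 0.83 with these genes, *Tap1* and *Psmb9*, and *Tap2* lies at 0.07 to 0.12 with the heavy chains and *Tap1*.

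Ratios of counts within a library do not depend on the scaling between libraries, and 6 were tested by an exact two-sided permutation of the libraries, with Benjamini-Hochberg adjustment over the 6. The ratio of *Psmb8* to *Psmb5*, the constitutive subunit it replaces, was 8.8, 9.65, 10.2, 9.73 and 8.43 in PBS libraries 1 to 5. It was 10.6, 10.8, 10.3, 10.4 and 11.3 in GA libraries 1 to 5. Every GA library lay above every PBS library, with means of 9.36 ± 0.732 and 10.7 ± 0.365 (SD, n = 5 each). The log2 difference was 0.19 (exact permutation *P* = 0.00794, the smallest the design allows, adjusted 0.0476). It ran from 0.15 to 0.22 over the fits with 1 library left out, where the adjusted p was 0.0476 without each PBS library and 0.0952 without each GA library. Before adjustment the exact permutation p was 0.00794 without each PBS library and 0.0159 without each GA library. The ratio thus did not pass when any GA library was left out.

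Of the genes of this ratio, *Psmb5* had the fold change further from 1. It had 10.6 to 13.5 CPM in PBS libraries and 9.43 to 10.4 CPM in GA libraries, without overlap. Its log2 fold change was -0.25 (standard error 0.12, unadjusted p 0.0466, edgeR adjusted *P* = 0.859). That of *Psmb8* was -0.06, within its error. *Psmb5* rests on 332 to 478 reads per library, and the ratio is of reads, not of reads per length. GA and the opening number of the titles cannot be told apart for this ratio either, which was 10.6 and 10.8 in the libraries of 394 and 10.3 to 11.3 in those of 400.

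The other 5 ratios did not pass. *H2-D1* to *B2m* was 0.752 ± 0.144 with PBS and 0.904 ± 0.107 with GA (SD, n = 5 each; log2 difference 0.28, exact permutation *P* = 0.0952, adjusted 0.286). *H2-K1* to *B2m* was 0.294 ± 0.0565 and 0.323 ± 0.0346 (SD, n = 5 each; exact permutation *P* = 0.310, adjusted 0.371). *Psmb9* to *Psmb6* was 0.624 ± 0.0968 and 0.714 ± 0.0922 (SD, n = 5 each; exact permutation *P* = 0.206, adjusted 0.369). For *Tap1* to *Tap2* the exact permutation *P* was 0.484 (adjusted 0.484) and for *Psmb10* to *Psmb7* it was 0.246 (adjusted 0.369).

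**Figure D4:**
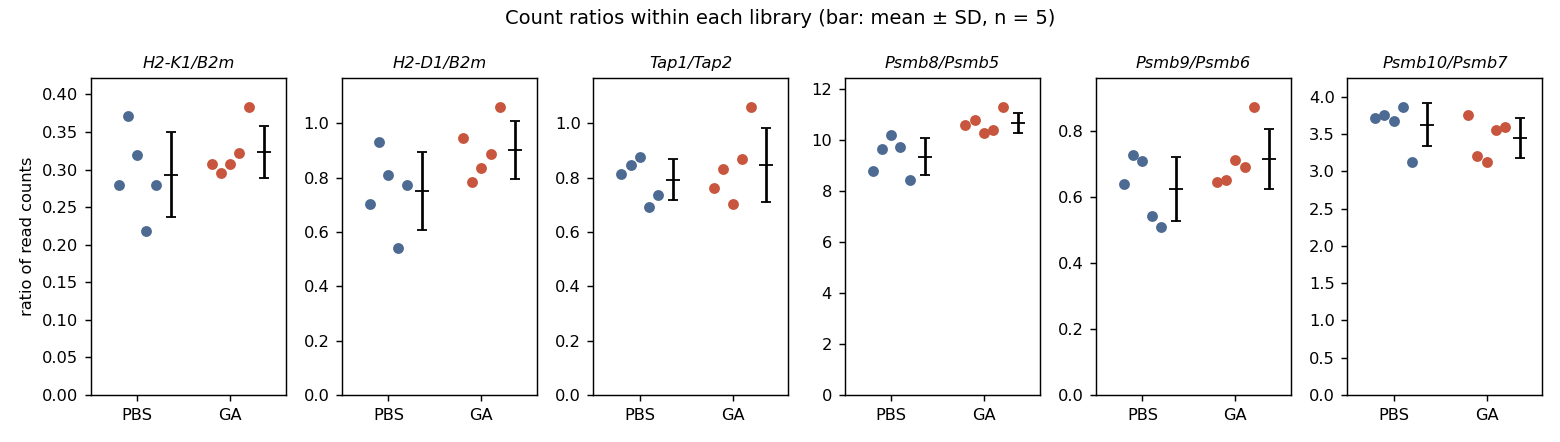
Ratio of read counts (y axis, linear, from 0) for 6 gene pairs in the 5 PBS (blue) and 5 GA (red) libraries, in the order 1 to 5 from left to right, with the mean ± SD (n = 5) as bars. Only for *Psmb8* over *Psmb5* do the groups separate, at 8.43 to 10.2 with PBS and 10.3 to 11.3 with GA.

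Of 40 further genes listed for the pathway, 39 were in the table and 34 were tested, with 0 adjusted p under 0.05. In this list 24 of the 34 (70.6%) had a fold change above 1, against 50.1% of all genes, with a median log2 fold change of 0.06. At an unadjusted p under 0.05, 1 gene was higher and 2 were lower, beside 374 higher and 459 lower of all genes (5.75% in all). *Calr*, which encodes calreticulin, a chaperone of the loading complex, had 860 to 1049 CPM with PBS and 989 to 1032 CPM with GA (log2 fold change 0.15, unadjusted p 0.0302, edgeR adjusted *P* = 0.854). *Nfkb1*, which encodes the NF-κB subunit p50, had 166 to 184 CPM with PBS and 157 to 159 CPM with GA (log2 fold change -0.16, unadjusted p 0.0110, edgeR adjusted *P* = 0.847), and with *Psmb5* it was 1 of 2 genes of the list whose groups did not overlap, as for 0.891% of all genes. *Tapbpl*, a relative of tapasin, had the lowest fold change of the loading and trimming genes, 0.01 on the log2 scale.

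All 9 other heavy chain genes that were tested had a fold change above 1, with a median log2 fold change of 0.19, and 0 of them had an unadjusted p under 0.05. Of all genes, 50.1% had a fold change above 1. Without GA 5 this held for 7 of the 9 and 50.4% of all genes, with a median of 0.14 for the 9. Without GA 2 the median was 0.30, and 5 of the 9 and 6.77% of all genes had an unadjusted p under 0.05. The highest was *H2-Q6*, a nonclassical Qa-2 gene, with 12.1, 51.2, 32.9, 19.2 and 27.2 CPM in PBS libraries 1 to 5. It had 32.8, 9.12, 36.4, 52.5 and 112 CPM in GA libraries 1 to 5, with GA 5 highest and GA 2 lowest. Its log2 fold change was 0.77 (standard error 0.49, unadjusted p 0.139, edgeR adjusted *P* = 0.895). The lowest was *Mr1*, which presents microbial vitamin metabolites, at 0.02 on the log2 scale. Of the 100-base stretches of *H2-Q6*, 13% also occur in other genes, mostly *H2-Q7*, so the counts of these paralogs are uncertain.

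Of 14 regulators, 8 had a fold change above 1 (50.1% of all genes) and 6 below, with a median log2 fold change of 0.04. The inducible proteasome genes *Psme2* and *Psmb10* had log2 fold changes of 0.08 and -0.10, and *Psmb6* was the highest of the constitutive genes at -0.02.

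By the mean of their standardized log2 CPM, in which each gene has a mean of 0 and an SD of 1 over the libraries, the 10 genes stood at -0.775, 0.222, -0.221, 0.109 and 0.0108 in PBS libraries 1 to 5. They stood at -0.235, -1.18, 0.0365, 0.484 and 1.55 in GA libraries 1 to 5. The lowest and the highest library were thus both from GA-treated mice. The 9 other heavy chain genes had their lowest mean in GA 2 (-1.12) and their highest in GA 5 (1.39) as well.

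The 21 interferon-induced genes compared with them had means of 1.21 in GA 4 and 1.67 in GA 5, and of -0.808 to 0.415 in the other libraries. Of these, 20 had a fold change above 1 (50.1% of all genes), with a median log2 fold change of 0.36. None of the 21 had an edgeR unadjusted p under 0.05, beside 5.75% of all genes. Without GA 5 the count above 1 was 15 (50.4% of all genes) and the median 0.14. Without GA 2 the count was 21 (50.3% of all genes) and the median 0.53. In the fit without GA 2, 6 of the 21 had an unadjusted p under 0.05 (6.77% of all genes). *Oas1a*, an antiviral RNA sensor, was the highest (log2 fold change 0.80, unadjusted p 0.100, edgeR adjusted *P* = 0.895), with 12.2 CPM in GA 4 and 15.1 CPM in GA 5 against 2.45 to 7.06 CPM in the other libraries. *Gbp2*, a guanylate-binding protein, was the lowest at -0.02. *Ifnb1*, the interferon β gene, was counted 0 to 8 times per library and *Ifng* 0 to 1 times, and neither was tested. Of the interferon receptor genes, *Ifnar2* was the highest at 0.03 and *Ifngr1* the lowest at -0.08 on the log2 scale.

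The 7 MHC class II genes had a fold change below 1 for all 7, a median log2 fold change of -0.17 and 0 with an unadjusted p under 0.05. Of all genes, 50.1% had a fold change above 1 and 5.75% an edgeR unadjusted p under 0.05. *H2-DMb1*, a class II loading chaperone, was the highest at -0.06, and *Ciita*, the class II transactivator related to *Nlrc5*, was the lowest at -0.46 (standard error 0.34, edgeR adjusted *P* = 0.910). Their mean was highest in PBS 4 at 1.85 and was 0.327 in GA 5. The count of 7 below 1 rests on PBS 4, without which 5 of the 7 and 51.2% of all genes had a fold change above 1. The median log2 fold change of the 7 was then 0.07. Whether they differ from the class I genes was not tested.

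**Figure D5:**
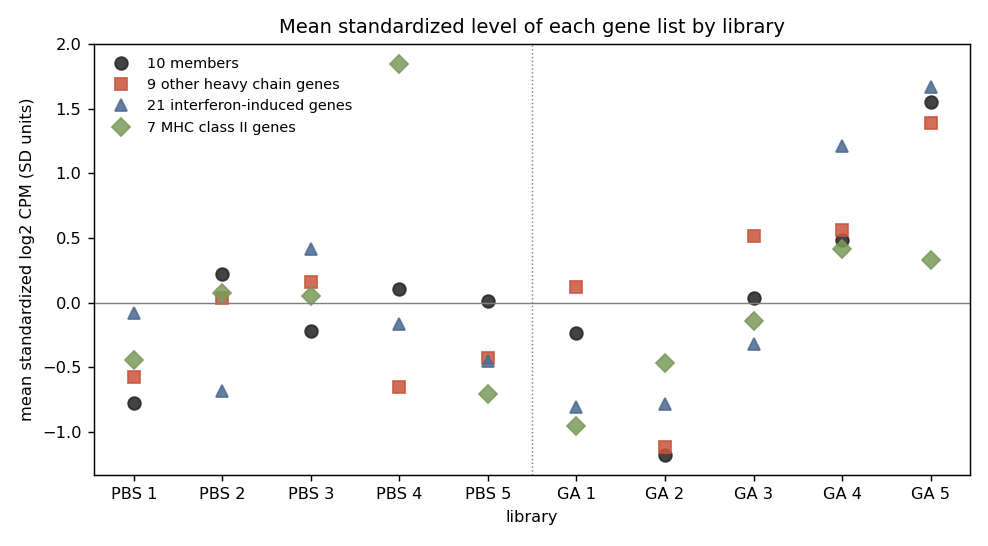
Mean standardized log2 CPM (y axis, in SD units over the 10 libraries) of the 10 class I presentation genes, 9 other heavy chain genes, 21 interferon-induced genes and 7 MHC class II genes in each library (x axis); the dotted line separates PBS from GA. The first 3 lists are highest in GA 5, and the class II genes are highest in PBS 4.

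The 5 genes outside the list most like the mean of the 10 genes across the libraries, among 8682 genes with at least 10 CPM on average, were *Rcn1* (r = 0.956), *H2-Q6* (r = 0.925), *H2-Q7* (r = 0.918), *Irf1* (r = 0.896) and *Mrps7* (r = 0.893). *Rcn1* encodes a calcium-binding protein of the endoplasmic reticulum and had 37.3 CPM in GA 5 against a median of 25.4 CPM. *Irf1*, a transcription factor that binds the ISRE, had 107 CPM in GA 5 against a median of 69.2 CPM. *Mrps7* encodes a protein of the mitochondrial ribosome.

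Summed markers of T and NK cells, B cells, border-associated macrophages, neutrophils and monocytes in GA 5 lay within the range of the PBS libraries. The summed level of 12 T and NK cell markers was 0.0916 to 1.73 CPM with PBS and 0.47 to 1.6 CPM with GA, the highest of these in GA 5, and *Gzmb* and *Ncr1* were at 0 in all libraries, which allows up to 3 counts in each. The 3 B cell markers summed to 0.351 to 0.875 CPM with PBS and 0.256 to 0.913 CPM with GA. The 6 markers of border-associated macrophages summed to 35.9 to 174 CPM with PBS and 36 to 131 CPM with GA, 68.7 CPM in GA 5. The 9 neutrophil markers summed to 34.5 to 419 CPM with PBS and 8.4 to 156 CPM with GA, 98 CPM in GA 5 (two-sided exact permutation *P* = 0.0794). Of these, 6 were tested and all 6 were lower with GA, 5 at an unadjusted p under 0.05 (459 of all 14481 genes were lower at that p), *Camp* with the lowest log2 fold change, -2.44, and *Retnlg* with the highest, -1.27. The 4 monocyte markers summed to 28.4 to 83.4 CPM with PBS and 30.4 to 43.3 CPM with GA, 36.7 CPM in GA 5. All 4 were lower with GA, 2 of them at an unadjusted p under 0.05: *Ly6c2* (log2 fold change -1.94, unadjusted p 0.00589, edgeR adjusted *P* = 0.847) and *Chil3* (-2.23, unadjusted p 0.0170, edgeR adjusted *P* = 0.847). *Ly6c2* rests on 1 to 43 reads per library. *Ccr2*, with the highest mean level of the 4, had a log2 fold change of -0.10 (edgeR unadjusted p 0.604). That of *Plac8* was the highest, at -0.03. The 4 oligodendrocyte markers summed to 78.3 to 98.2 CPM with PBS and 83.7 to 109 CPM with GA, 101 CPM in GA 5. Markers of neurons summed to 0.703 to 1.76 CPM with PBS and 0.3 to 0.939 CPM with GA, 0.516 CPM in GA 5 (two-sided exact permutation *P* = 0.0794). Those of endothelium summed to 62.8 to 75.5 CPM with PBS and 64 to 74.4 CPM with GA, and those of astrocytes to 1.89 to 7.3 CPM and 2.97 to 5.79 CPM. The part of these cells in the levels of the 10 genes was not tested.

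The genes of the sort and stain did not pass the test. *Itgam*, which encodes CD11b, had a log2 fold change of 0.35 (unadjusted p 0.113), *Ptprc*, which encodes CD45, 0.04 (unadjusted p 0.503) and *P2ry12*, a receptor of homeostatic microglia that was stained but did not define the gate, -0.12 (unadjusted p 0.0600), with edgeR adjusted *P* values of 0.895, 0.953 and 0.872. *P2ry12* had 5570 to 6881 CPM with GA and 6603 to 7351 CPM with PBS. *Itgam* had 88.7 CPM in PBS 4, 191 to 233 CPM in the other PBS libraries and 197 to 299 CPM with GA.

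Some of the 10 genes share exon bases with neighbors, and their counts are uncertain to that extent. *Tap1* and *Psmb9* share 212 bases on opposite strands, *Psmb8* shares 498 with *Gm20496*, *Tap2* shares 533 with *Gm15821* and *Tapbp* shares 149 with *Zbtb22*. Of 100-base stretches, the read length used here, 14.8% of those of *Tapbp*, 8.05% of those of *Psmb8*, 4.99% of those of *Tap2*, 3.59% of those of *H2-D1*, 3.15% of those of *H2-T23*, 2.73% of those of *Psmb9* and 1.93% of those of *Tap1* occur in other genes. None of those of *B2m* and *Nlrc5* do.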

How the data were processed

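RNA of sorted hippocampal microglia was measured in 10 libraries, 5 per treatment, grouped by the treatment label. The authors deposited raw counts of reads per gene as whole numbers without normalization. Per the labels, reads were processed with bcl2fastq 2.19.0, fastp 0.20.0, STAR 2.7.0f and featureCounts of Subread 1.6.4 on GRCm38.p6, and DESeq2 is named among the tools. Annotation release and strand setting are not given in the sources used here. RNA was amplified with a SMARTer kit before Nextera XT libraries were sequenced as single reads of 100 bases. The reads carry no molecular identifiers, so limits set by a count cover counting error only. The 45 pairs of libraries differed by more than counting noise (chi-square of at least 13.9 per degree of freedom), so none was treated as a copy; this does not show that they came from separate mice. All columns of the table were matched to a sample.

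After a filter on low counts (filterByExpr, minimum count 10) and TMM normalization, the treatments were fitted without a covariate by the quasi-likelihood method of edgeR, with Benjamini-Hochberg adjustment (R 4.3.3, edgeR 4.0.16, limma 3.58.1, DESeq2 1.42.0). Normalized CPM are given; single values used exact permutation tests over 252 arrangements on log2(CPM + 0.1), and correlations used 100000 permutations. Exon lengths and positions came from GENCODE M21 and were known for 98.2% of the genes in the table; promoters came from RefSeq. Python 3.11.15 with numpy 2.4.6, matplotlib 3.10.9 and Biopython 1.88 served for sequences and figures. The edgeR fit was tested on simulated data.

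The members and the gene lists were chosen with earlier results of these data known. The text names all 10 members, in every further list the genes with an unadjusted p under 0.05 and those with the highest and lowest fold change, the 5 genes most like the members' mean, and the genes of the sort and stain (*Itgam*, *Ptprc*, *P2ry12*); of marker lists for other cells, sums are given, with single genes for neutrophils and monocytes and those of T and NK cells at 0. Alternatives were other tools, scalings and filters, GA libraries of 1 title number alone, a block on the title number and the omission of each library. Counts for GA 5, results without it for correlations and title numbers, counts of the comparison lists without each library, and 2 promoter words were added after the data were seen. A gene that this rule names among the regulators is not reported here.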

Additional observations from a re-analysis of the deposited data

Results flagged for a closer look

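In 3 of 32 groups of 5 libraries, 1 library stood further from the others than Dixon's test allows at 95% (gap over range above 0.71). Chance flags about 1 in 20 groups. *Psmb8* was at 117 CPM in GA 5, with a gap to the next GA library of 0.716 of the group's range. *Nlrc5* was at 20.7 CPM in PBS 2, with a gap of 0.775 of the range. The ratio of *Psmb10* to *Psmb7* was 3.13 in PBS 5, the lowest of its group, with a gap of 0.748 of the range. Why these libraries stood apart was not tested.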

How the results depend on the processing

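No member passed an adjusted p of 0.05 for GA against PBS under any alternative, the smallest being 0.533 for *H2-D1*. Under each of the other 3 scalings 7 had a fold change above 1. DESeq2 called 2 genes of the whole table, and the fits that leave out 1 library called 0 to 1 (1 without GA 1). Unadjusted p under 0.05 was found for 1 member without a filter (6.9% of all genes), for 5 with the GA libraries of title number 400 alone (6.47%), and for 0 to 3 with 1 library left out (1 without PBS 2, where 6.56% of all genes had one, and 3 without GA 2, 6.77%). With the GA libraries of 394 alone, 1 member had a fold change above 1, and the log2 fold changes of *H2-K1* (-0.19), *H2-D1* (-0.018), *H2-T23* (-0.089), *B2m* (-0.251), *Tap1* (-0.085) and *Nlrc5* (-0.421) reversed. *Tapbp* reversed without a filter (0.0086), with limma-voom (4.64e-05) and with 400 alone (0.051). With 1 library left out it ranged from -0.026 to 0.0466, *B2m* from -0.0751 to 0.13, *Tap1* from -0.0445 to 0.11, *Psmb8* from -0.0928 to 0.00403 and *Nlrc5* from 0.012 to 0.88, the last without PBS 2. The difference between groups in the log2 ratio of *Psmb8* to *Psmb5* ranged from 0.15 to 0.22. Its adjusted p (exact permutation) was above 0.05 (0.0952) without each GA library. Of 45 correlated pairs, 3 passed without GA 5, 15 when centred and 11 with library-size scaling. Between title numbers DESeq2 called 73 genes where edgeR called 2, and whether any member was among the 73 is not given here. Without GA 5 only 1 member had an unadjusted p under 0.05 in edgeR. A replicate block on the second number of the titles called 0 genes and 0 members, with 983 genes at an unadjusted p under 0.05, and reversed *Tapbp* (0.0545) and *Psmb8* (0.0541). In this fit 9 members had a fold change above 1 (51.5% of all genes). The log2 fold change of *B2m* rose to 0.224, and those of *Nlrc5* and *Tap1* fell to 0.233 and 0.017. Same-numbered PBS and GA libraries had correlations of -0.12 to 0.049, and those of other numbers -0.11 to 0.071. These values gave no sign that the numbers pair the samples, which they cannot exclude. The cause of these changes was not tested.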
